A study of Homo sapiens with 15 samples.

Results

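RNA levels of 9 genes that encode cell-cell adhesion molecules were followed in MDA-MB-231 cells, a human triple-negative breast cancer line, after 6 h with ZJ-101, a synthetic compound simplified from the sponge metabolite superstolide A. The genes are the cadherin CDH11, the claudins CLDN1 and CLDN4, the nectins NECTIN2 and NECTIN3, and F11R, ALCAM, L1CAM and CD44. They were found by symbol among the 59608 genes of the deposited table, and all 9 were among the 13561 genes tested, those whose normalized counts averaged 10 or more. CDH11 and the claudins were selected on their normalized counts, for opposite changes, and the comparison used is not named. The pick was taken here to rest on 500 nM against DMSO, so for the 9 genes that comparison is a description with no test, and they are tested between 50 nM and the 0.5 and 5 nM groups, which share no library with it. If the pick also used the middle doses, the tests of CDH11, CLDN1 and CLDN4 are not independent of it. Other adhesion genes are tested in both comparisons.

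Cells in monolayer received 0.1% DMSO, the vehicle, or ZJ-101 at 0.5, 5, 50 or 500 nM, and each of the 5 groups holds 3 libraries of poly-A RNA. The labels give no genetic change, and all groups are the same line at the same time point, so 1 line stands for all cells here. In bulk RNA, fewer cells with a transcript and less of it per cell cannot be told apart. A normalized count is the number of reads on a gene divided by the size factor of its library. Reads on genes numbered 12415519 to 15284762 per library, and size factors lay between 0.916 and 1.13. The chi-square of recovered reads between replicates, divided by its degrees of freedom, was at most 6.27 for all pairs but those with replicate 2 of the 0.5 nM group. It was 11.1 and 16.5 for these pairs, so the members' differences between 50 nM and the low doses are also given without it. Markers of both luminal epithelial and mesenchymal cells were present. Of the luminal markers, KRT8 lay between 11198 and 13346 normalized counts, KRT19 between 5414 and 7630, KRT18 between 4032 and 5115 and ERBB2 between 1136 and 1328. CLDN3, CDH1, GATA3, EPCAM and CLDN7 were lower, between 39.1 and 401, and PGR did not exceed 17.3. ESR1, the estrogen receptor, stayed between 0 and 4.30 normalized counts, VIM lay between 13433 and 18413 and AXL between 12148 and 14423, while SPARC, also on the mesenchymal list, did not exceed 6.18. The 5 leukocyte markers summed to 10.6 at most, with CD3E at 0 in all libraries, and of the endothelial markers CDH5 and VWF did not exceed 3.09 whereas PECAM1 and KDR lay between 73.1 and 321.

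Cadherins are calcium-dependent receptors that bind cadherins on the neighboring cell and are tied to actin through catenins. CDH11 is a cadherin of mesenchymal cells and is found in invasive breast cancer cells. Claudins are the membrane proteins that form the strands of tight junctions. Nectins are immunoglobulin-like receptors of adherens junctions that are linked to actin by afadin, and F11R, also called JAM-A, is an immunoglobulin-like protein of tight junctions. ALCAM and L1CAM are immunoglobulin-like adhesion molecules, and CD44 is the main receptor for hyaluronan. Several of these proteins are cut off the cell surface by ADAM and membrane-type matrix metalloproteases.

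CLDN1 and CLDN4 are the members with higher levels at the high doses, so the 250 bases before their start sites are shown (RefSeq, GRCh38.p14). CLDN1 lies on the minus strand at chr3:190322447-190322696 and CLDN4 on the plus strand at chr7:73830746-73830995. In GENCODE the CLDN4 gene starts farther upstream, at 73799542, so this window lies inside it. Which start site these cells use is not known. Capitals mark GC boxes (GGGCGG or CCGCCC) and AP-1 motifs (TGANTCA, which reads alike on both strands).
CLDN1: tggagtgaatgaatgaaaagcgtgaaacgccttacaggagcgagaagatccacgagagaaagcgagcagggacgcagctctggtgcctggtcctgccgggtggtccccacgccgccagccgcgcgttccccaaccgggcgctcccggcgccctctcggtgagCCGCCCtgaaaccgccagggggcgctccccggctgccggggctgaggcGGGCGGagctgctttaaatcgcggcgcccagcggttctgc
CLDN4: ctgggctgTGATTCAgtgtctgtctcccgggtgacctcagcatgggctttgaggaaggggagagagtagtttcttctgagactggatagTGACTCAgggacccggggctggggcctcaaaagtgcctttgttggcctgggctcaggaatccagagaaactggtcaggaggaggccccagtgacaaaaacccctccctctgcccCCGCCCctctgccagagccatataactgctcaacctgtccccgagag
The CLDN1 window held 2 GC boxes and 0 AP-1 motifs, and the CLDN4 window held 1 GC box and 2 AP-1 motifs. Of 35116 promoters of this length, 42.6% held a GC box and 6.57% an AP-1 motif. Neither window held the E-box CAGGTG or CACCTG, which is bound by factors of the SNAI and ZEB families and was present in 17.5% of promoters, or the heat-shock element GAANNTTC or TTCNNGAA, present in 11.6%. The GC content was 68.8% in CLDN1 and 58.8% in CLDN4, against a median of 58% over all promoters. RefSeq windows were found for 7 of the 9 genes, and CDH11 and F11R had none. GC boxes were also present in the windows of NECTIN2 (3), NECTIN3 (5), ALCAM (1), L1CAM (2) and CD44 (2), which did not pass upward. These windows held no AP-1 motif and no heat-shock element, and only that of ALCAM held an E-box. Like the CLDN4 window, those of NECTIN3, L1CAM and CD44 lie inside the gene as GENCODE gives it, and that of NECTIN2 does in part. Whether the motifs bear on the levels was not tested.

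CDH11 (ENSG00000140937.14, chromosome 16, 64943753 to 65126112, minus strand, GRCh38) was lower at each higher dose. It had 1709, 1597 and 1477 normalized counts in the DMSO libraries and 1234, 1110.3 and 1426 at 0.5 nM. At 5 nM it had 933, 948 and 1027, at 50 nM 751, 849 and 762, and at 500 nM 663, 612 and 618. The ranges of all 5 groups were separate, with each step downward from DMSO to 500 nM. The means were 1594 ± 116, 1257 ± 159, 969 ± 50.5, 787 ± 53.9 and 631 ± 28.1 (SD, n = 3 each). Against DMSO the log2 difference was -0.35 at 0.5 nM, -0.72 at 5 nM, -1.02 at 50 nM and -1.33 at 500 nM, each with a standard error of 0.08. These 4 values share the DMSO libraries and are given with no test. Between the treated groups, CDH11 fell from 0.5 and 5 nM to 50 nM by 0.48 on the log2 scale (95% interval -0.63 to -0.34, adjusted p = 0.000105, limma with Benjamini-Hochberg adjustment). Without replicate 2 of the 0.5 nM group this value was -0.53 (adjusted p = 2.38e-06, limma).

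The lowest step of CDH11 was less firm. From 0.5 to 5 nM the log2 difference was -0.37 (95% interval -0.53 to -0.20, unadjusted p = 0.000196, adjusted p = 0.133, limma), in a comparison where 0.118% of all tested genes were called. These 16 genes became 25 without replicate 2 of the 0.5 nM group, 29 with DESeq2, 4 in the fit of only the groups compared, 7 without 5 nM replicate 2 and 9 without either other 5 nM library. The CDH11 libraries did not overlap, as was the case for 10.6% of the tested genes. Replicate 2 of the 0.5 nM group had the lowest CDH11 value of its group. Without it the difference was -0.45 and passed the threshold (adjusted p = 0.00651, limma), and DESeq2 on the recovered reads gave -0.38 (adjusted p = 0.00266). Over all alternatives the adjusted p ranged from 0.00266 to 0.837, and the difference from -0.45 to -0.27.

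**Figure D1:**
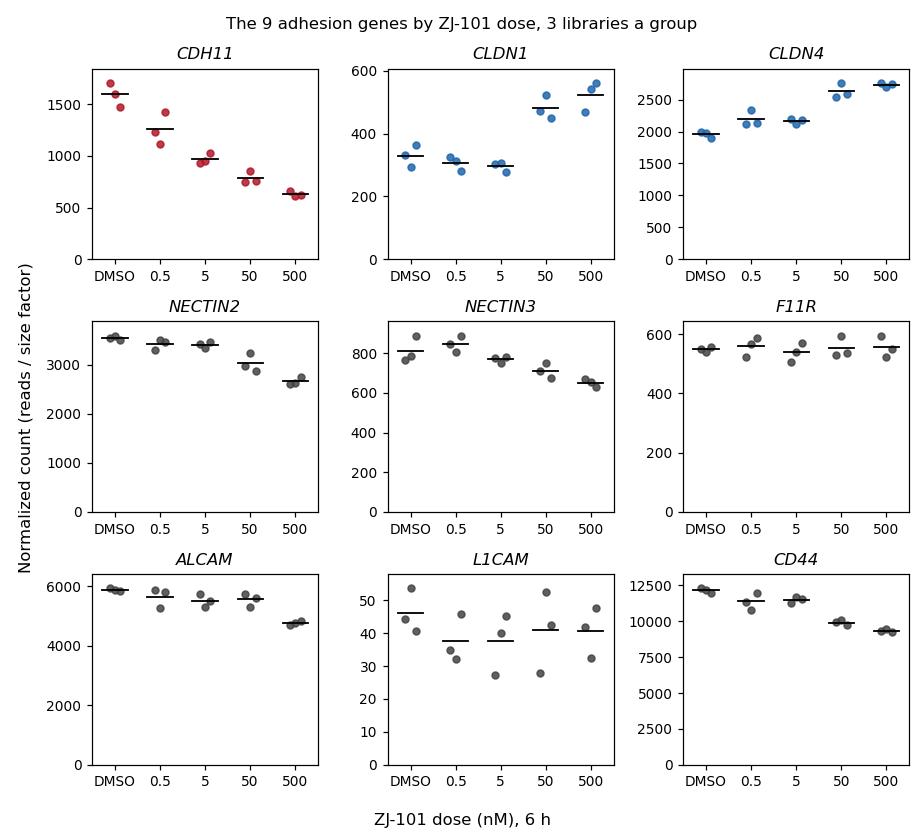
Normalized counts (vertical axes, from 0) of the 9 genes against the dose of ZJ-101 in nM, with 1 point per library and a bar at the mean of each group of 3. CDH11 is lower at each dose, CLDN1 is at about the level of DMSO up to 5 nM and higher at 50 and 500 nM, and ALCAM is lower at 500 nM.

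CLDN1 (ENSG00000163347.6, chromosome 3, 190305707 to 190322446, minus strand) kept to 1 range up to 5 nM and lay in another from 50 nM on. It had 331, 294 and 363 normalized counts in DMSO, 327, 314 and 281 at 0.5 nM and 304, 307 and 277 at 5 nM. At 50 nM it had 473, 522 and 451, and at 500 nM 469, 543 and 563. Every library at 50 or 500 nM was above every library of the other 3 groups, and the 50 and 500 nM libraries overlapped. CLDN1 rose from 0.5 and 5 nM to 50 nM by 0.67 on the log2 scale (95% interval 0.51 to 0.84, adjusted p = 1.22e-05, limma), the widest difference of the 9 genes in this comparison, and by 0.68 without replicate 2 of the 0.5 nM group. Between 0.5 and 5 nM the difference was -0.05 (95% interval -0.24 to 0.14, adjusted p = 0.905, limma). The descriptive difference between 500 nM and DMSO was 0.67, the same size as that between 50 nM and the low doses.

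CLDN4 (ENSG00000189143.10, chromosome 7, 73799542 to 73832690, plus strand) was more abundant and moved by less. In DMSO it had 1985, 1979 and 1897 normalized counts, at 0.5 nM 2116, 2339.7 and 2131, and at 5 nM 2191, 2113 and 2184. At 50 nM it had 2548, 2756 and 2589, and at 500 nM 2765, 2701 and 2739.7. Unlike CLDN1, CLDN4 was above all DMSO libraries already at 0.5 and 5 nM, by 0.17 and 0.15 on the log2 scale with a standard error of 0.05 each, which is given with no test. The rise from 0.5 and 5 nM to 50 nM was 0.27 (95% interval 0.19 to 0.36, adjusted p = 0.000148, limma), and it was 0.30 without replicate 2 of the 0.5 nM group. At 500 nM the level was 0.49 above DMSO. Whether CLDN1 and CLDN4 differed from each other in dose response was not tested.

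Of the nectins, which pair with each other across cell contacts, NECTIN2 was the more abundant. NECTIN2 (ENSG00000130202.10, chromosome 19, 44846175 to 44889223) had 3548, 3598 and 3507 normalized counts in DMSO, between 3294 and 3504 at 0.5 and 5 nM, 2976, 3251 and 2865 at 50 nM, and 2610.1, 2639.7 and 2749 at 500 nM. The groups at 50 and 500 nM were separate from each other and from all lower doses. NECTIN2 fell from 0.5 and 5 nM to 50 nM by 0.17 on the log2 scale (95% interval -0.26 to -0.09, adjusted p = 0.00844, limma). It no longer passed without 50 nM replicate 1 or 3 (adjusted p = 0.0562 and 0.0883, limma), and without replicate 2 of the 0.5 nM group it was -0.16. At 500 nM it was 0.41 below DMSO on the log2 scale.
NECTIN3 (ENSG00000177707.11, chromosome 3, 111070071 to 111275563) ranged from 768 to 889.8 normalized counts in DMSO, from 806 to 887 at 0.5 nM and from 753 to 781 at 5 nM. It ranged from 674 to 752 at 50 nM and from 631 to 669 at 500 nM. Each dose above 0.5 nM thus lay below the dose before it, while the 0.5 nM libraries overlapped those in DMSO. The decrease from 0.5 and 5 nM to 50 nM was -0.18 on the log2 scale (95% interval -0.29 to -0.07, adjusted p = 0.0375, limma). It did not pass under 10 of the 25 alternatives, among them no filter on low values (adjusted p = 0.0753), the same total per library (adjusted p = 0.0506), the fit of these groups alone (adjusted p = 0.0696) and the omission of 50 nM replicate 1 or 3 (adjusted p = 0.123 and 0.209, all limma). Leaving out 0.5 nM replicate 1 or 3, or any of the 5 nM libraries, gave an adjusted p of 0.0514 to 0.0702 (limma), and without replicate 2 of the 0.5 nM group the value was -0.20 (adjusted p = 0.0125, limma). At 500 nM NECTIN3 was 0.32 below DMSO.

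CD44 (ENSG00000026508.21, chromosome 11, 35138882 to 35232402) had the most reads of the 9 genes. It had 12291, 12195 and 11976 normalized counts in DMSO, between 10815 and 11942 at 0.5 nM and between 11256 and 11658 at 5 nM. At 50 nM it had 9949.8, 10058 and 9715, and at 500 nM 9302, 9431 and 9275. No library at 50 or 500 nM reached the lowest of the other groups. CD44 fell from 0.5 and 5 nM to 50 nM by 0.21 on the log2 scale (95% interval -0.28 to -0.13, 0.87-fold, adjusted p = 0.000616, limma), and the value was -0.22 without replicate 2 of the 0.5 nM group, which had the lowest CD44 value of its group. The counts are per gene, so isoforms of CD44 with different variable exons were not told apart.

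ALCAM (ENSG00000170017.12, chromosome 3, 105366909 to 105576900) had its lowest libraries at 500 nM only. It had 5931, 5864 and 5849 normalized counts in DMSO, and between 5253 and 5858 at 0.5, 5 and 50 nM, where the 3 groups overlapped. At 500 nM it had 4701, 4751 and 4848, below all other libraries. From 0.5 and 5 nM to 50 nM the difference was -0.0042 (95% interval -0.09 to 0.08, adjusted p = 0.966, limma), so a change of the size seen in CD44 lies outside the interval, and it was -0.03 without replicate 2 of the 0.5 nM group. From 50 to 500 nM it was -0.22 with a standard error of 0.05, given with no test because the 500 nM libraries are taken to have entered the choice of genes.

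F11R and L1CAM did not pass in either tested comparison. F11R (ENSG00000158769.18, chromosome 1, 160995211 to 161021343) had between 506 and 595 normalized counts in all 15 libraries, with group means of 539 to 558 and SDs of 8.47 to 36.1. Its log2 difference between 50 nM and the low doses was 0.01 (95% interval -0.11 to 0.14, adjusted p = 0.925, limma), and 0.02 without replicate 2 of the 0.5 nM group. Of its exon bases, 36.6% lie inside another protein-coding gene on the same strand, ENSG00000270149. At least 50% of a transcript of F11R matches that gene at 95% identity or more. Reads on the shared bases cannot be assigned to 1 of the pair, so the level of F11R is uncertain. L1CAM (ENSG00000198910.14, chromosome X, 153861514 to 153886173) had between 27.4 and 53.6 normalized counts per library. Its group SDs of 6.73 to 12.3 stand beside SDs of 6.13 to 6.79 that counting alone would give at these levels. The interval of its difference, -0.34 to 0.53 around 0.10 (adjusted p = 0.836, limma), would hold a change as wide as that of NECTIN2 in either direction, so a change of this size was not detectable at this depth. Without replicate 2 of the 0.5 nM group the L1CAM difference was 0.04. Of the exon bases of L1CAM, 6.04% overlap another gene on the same strand and 4.94% the antisense gene L1CAM-AS1, and the strand setting of the counts is not known. The shares in CDH11, NECTIN2 and CD44 were 3.42% or less, and CLDN1, CLDN4, NECTIN3 and ALCAM had none.

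Over the 9 genes, 6 passed the threshold between 50 nM and the low doses, CLDN1 and CLDN4 upward and CDH11, NECTIN2, NECTIN3 and CD44 downward. CDH11, CLDN1 and CLDN4 were picked for opposite changes, so their calls in this count are not independent of the pick if it used these doses. Of all tested genes 8.84% passed in this comparison, 4.61% upward and 4.23% downward. These 1199 genes became 1818 without replicate 2 of the 0.5 nM group, 673 and 751 without 50 nM replicate 1 and 3, and 718 in the fit of only the groups compared. The 50 nM libraries did not overlap the 6 libraries of the low doses for the same 6 genes, and for 11.8% of all tested genes. The median log2 difference was -0.0042 over the 9 genes and 0.00046 over all tested genes. Without replicate 2 of the 0.5 nM group 6 genes passed as well, and over the alternatives between 4 and 6 passed. From 0.5 to 5 nM, 0 of the 9 passed with limma or with edgeR and 1 with DESeq2 (CDH11), and 2 had an unadjusted p under 0.05 (CDH11 and NECTIN3). Between 500 nM and DMSO, the comparison taken to have guided the pick, 2 genes were past the threshold upward and 5 downward, where 17.8% of all tested genes were past it, and the libraries of 7 members did not overlap, as did those of 38.5% of tested genes. Nothing is read from these last counts. Against DMSO, the libraries of 4 members did not overlap at 0.5 nM (18.1% of all tested genes), of 5 at 5 nM (23.2%) and of 7 at 50 nM (24.8%), and those of 5 members did not overlap between 50 and 500 nM (20.2%). These comparisons share libraries with that one and carry no test.

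**Figure D2:**
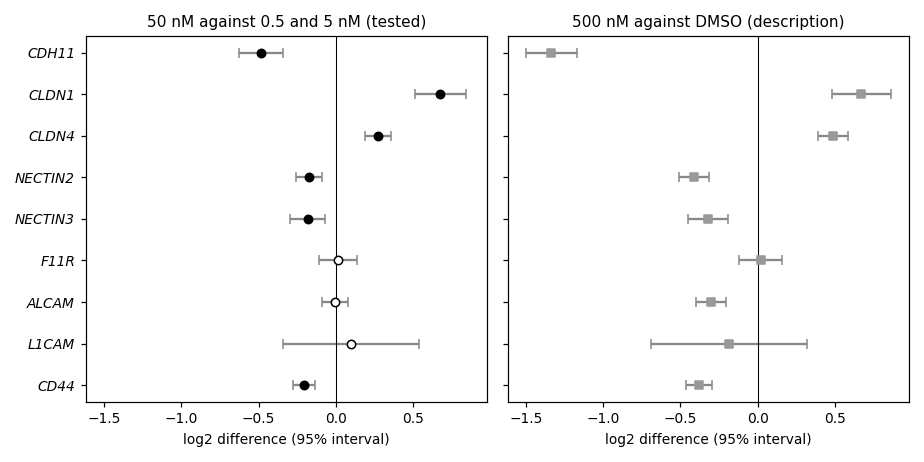
Log2 differences of the 9 genes (horizontal axes) with 95% intervals from limma. On the left, filled circles passed the threshold between 50 nM and the low doses and open circles did not, with CLDN1 at 0.67 and CDH11 at -0.48, and on the right gray squares give the untested description of 500 nM against DMSO, from 0.67 for CLDN1 to -1.33 for CDH11.

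Levels of different genes were compared per kilobase of exon (GENCODE release 44, all exons of a gene merged). In DMSO the order was CD44 with 1216 ± 16.2 normalized counts per kilobase, NECTIN2 with 949 ± 12.2, ALCAM with 819 ± 6.09, CLDN4 with 416 ± 10.5, CDH11 with 120.1 ± 8.72, F11R with 108 ± 1.67, NECTIN3 with 105 ± 8.58, CLDN1 with 90.8 ± 9.49 and L1CAM with 6.35 ± 0.93 (SD, n = 3 each). F11R and NECTIN3 overlapped in range, as did NECTIN3 and CLDN1, and the remaining neighbors did not. At 500 nM CDH11 was at 47.5 ± 2.12 per kilobase and CLDN1 at 145 ± 13.6 (SD, n = 3 each), so their order was the reverse of that in DMSO. CDH11 and CLDN1 were picked for opposite changes, so this reversal is a description and no further evidence. At 5 nM the means were 73.0 for CDH11 and 81.5 for CLDN1, with overlapping ranges of 70.3 to 77.4 and 76.4 to 84.5. At 50 nM the ranges were 56.6 to 64.0 and 124 to 144. Levels per kilobase rest on the annotated exons, which need not all be used in these cells. Another gene shares 36.6% of the exon bases of F11R, so the place of F11R in this order is uncertain.

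The genes whose pattern over the 15 libraries was most like that of CDH11, by Pearson's r of log2(normalized count + 1), were DNAJC3 (0.98), PCDH7 (0.97) and VWA1 (0.97). Those most like CLDN1 were DEGS1 (0.97), DOLPP1 (0.95) and ELOVL5 (0.95), and MFSD2A (0.97) was the most like CLDN4. These correlations are a description over libraries that share their dose groups. PCDH7 is a protocadherin and DNAJC3 a co-chaperone of the endoplasmic reticulum. PCDH7 had 532 ± 31.2 normalized counts in DMSO, 437 ± 48.9 at 0.5 nM, 404 ± 9.37 at 5 nM, 299 ± 10.4 at 50 nM and 245 ± 16.6 at 500 nM (SD, n = 3 each). Its mean, like that of CDH11, was lower at each higher dose. PCDH7 is described here for its likeness to CDH11, so this shared pattern is no separate evidence.

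Around the 9 genes stand 7 lists of other adhesion genes, with 145 tested genes among 210 listed. These lists were also chosen with earlier results known. At 500 nM against DMSO, 17 of the 145 rose and 34 fell, where 7.69% of all tested genes rose and 10.1% fell. The unadjusted p was under 0.05 for 72 of the 145. This count is given without the share over all tested genes, so nothing is read from it. The median log2 difference of the 145 genes was -0.066, beside 0.0027 over all tested genes. Between 50 nM and the low doses 17 rose and 13 fell, where 4.61% of all tested genes rose and 4.23% fell. Most genes named from the lists are named because they passed at 500 nM, so their adjusted p-values there describe that choice and are no further evidence. The named genes that passed between 50 nM and the low doses kept their calls without replicate 2 of the 0.5 nM group, with values of 0.31 for PVR, -0.88 for MMP14, -0.46 for ADAM10, 0.58 for CLDN2 and 0.29 for CLDN23. The rise count at 500 nM was 11 without DMSO replicate 3, and the calls between 50 nM and the low doses, 30 in all, were 19 without 50 nM replicate 3.

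**Figure D3:**
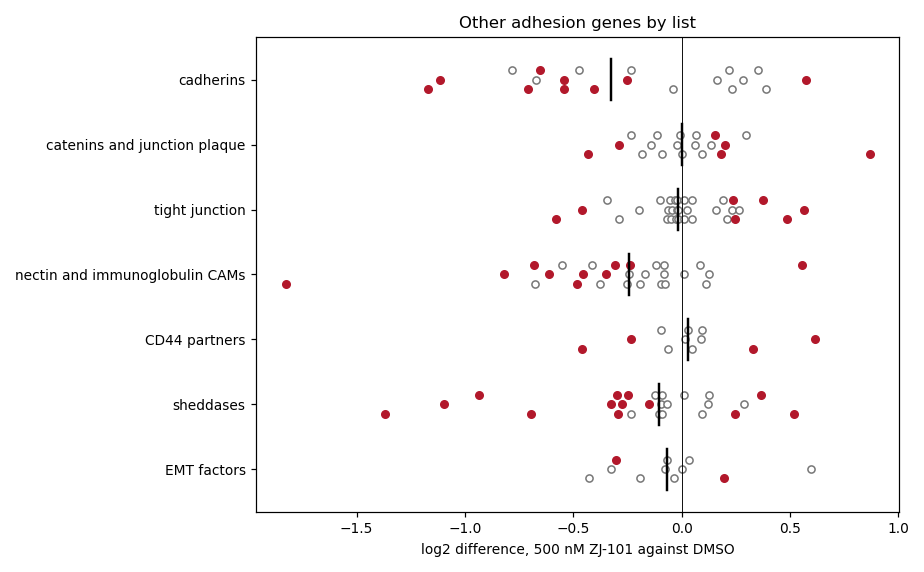
Log2 differences between 500 nM and DMSO (horizontal axis) for the tested genes of the 7 lists, with 1 circle per gene, filled where the gene passed the threshold, and a bar at each list's median. The medians of the cadherins (-0.33) and of the nectin and immunoglobulin molecules (-0.24) lie farthest from 0.

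Of 20 other cadherins, 8 fell and 1 rose at 500 nM, where 10.1% of all tested genes fell and 7.69% rose. Between 50 nM and the low doses 4 of them rose and 3 fell, where 4.61% of all tested genes rose and 4.23% fell. At 500 nM PCDH7 fell by 1.12 on the log2 scale (adjusted p = 7.79e-09, limma), PCDHGC3 by 1.17 and CELSR2 by 0.71. FAT1 rose by 0.57 (adjusted p = 0.0305, limma) and no longer passed without any 1 of the DMSO libraries or 500 nM replicate 1. CDH1, the epithelial cadherin, was named after its values were seen. It had 196 ± 6.49 normalized counts in DMSO, 113 ± 10.4 at 0.5 nM, 125 ± 20.3 at 5 nM, 168 ± 36.1 at 50 nM and 135 ± 16.4 at 500 nM (SD, n = 3 each), so its lowest mean was at the lowest dose, unlike that of CDH11. CDH1 fell by 0.54 between DMSO and 500 nM (adjusted p = 0.0118, limma) and rose by 0.49 between the low doses and 50 nM (adjusted p = 0.0186, limma). The fall did not pass without 500 nM replicate 1 (adjusted p = 0.0651), nor the rise without 50 nM replicate 2 or 3 (0.128 and 0.0667) or in the fit of those groups alone (0.0581, all limma). Of 19 catenins and plaque proteins, which tie cadherins to the cytoskeleton, 4 rose and 2 fell. JUP, plakoglobin, fell by 0.43 and SORBS3 by 0.29, while AJUBA rose by 0.20 and PKP2 by 0.18. PKP2 lost its call when DMSO replicate 1 or 500 nM replicate 1 was left out. LIMA1, an actin-binding protein named after its values were seen, rose by 0.15 and did not pass with no filter or in 3 of the omissions of a library.

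The tight-junction list (32 tested genes) had 5 rises and 2 falls at 500 nM, where 7.69% of all tested genes rose and 10.1% fell, 17.8% in all. Of 6 other claudins, 3 rose, namely CLDN15 (0.49), CLDN23 (0.37) and CLDN12 (0.24), the last named after its values were seen. CLDN23 also rose between the low doses and 50 nM (0.30, adjusted p = 0.00647, and 0.0512 without 50 nM replicate 3, limma), as CLDN1 and CLDN4 did. CLDN2, also named after its values were seen, rose in that comparison by 0.60 (adjusted p = 0.000962, limma), from means of 63.1 at 0.5 nM and 70.2 at 5 nM to 101 at 50 nM, and its level in DMSO was 98.3. CLDN15 did not pass when DMSO replicate 2, DMSO replicate 3 or 500 nM replicate 2 was left out. CGN, the scaffold protein cingulin, rose by 0.57 but lost its call with no filter and in 5 of the omissions of a library. ESAM, an adhesion molecule of the immunoglobulin family chosen after its values were seen, rose by 0.24. PARD6B, a polarity protein, fell by 0.58 and CXADR, an adhesion receptor of epithelial junctions, by 0.46.

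Of 27 nectin-like and immunoglobulin-like molecules, 9 fell and 1 rose at 500 nM, where 10.1% of all tested genes fell and 7.69% rose. Between 50 nM and the low doses 3 of them rose and 3 fell, where 4.61% of all tested genes rose and 4.23% fell. The single rise at 500 nM was that of PVR, a nectin-like partner of NECTIN3. It had 2133 to 2281 normalized counts in DMSO, 2882 to 2939 at 50 nM and 3144 to 3346 at 500 nM. PVR rose by 0.56 at 500 nM (adjusted p = 1.11e-07, limma) and by 0.34 between the low doses and 50 nM (adjusted p = 2.55e-05, limma), while NECTIN2 and NECTIN3 were lower. ICAM1, a ligand of leukocyte integrins, had 877 ± 73.8 normalized counts in DMSO and 246 ± 21.7 at 500 nM (SD, n = 3 each), and fell by 1.83. ICAM5 fell by 0.68. IGSF3, at -0.82 from 34.1 normalized counts in DMSO, did not pass with DESeq2 (adjusted p = 0.0543), with no filter, or in 4 of the omissions of a library.

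Among 11 partners of CD44, 2 rose and 2 fell at 500 nM, where 7.69% of all tested genes rose and 10.1% fell. HAS3, a hyaluronan synthase, rose by 0.62, ANK3, an ankyrin, fell by 0.46, and CD74 fell by 0.24. NF2, at 0.33, did not pass with DESeq2 (adjusted p = 0.0613), with no filter or in 5 of the omissions of a library. The proteases that release adhesion molecules from the membrane and their regulators (25 tested genes) had 10 falls and 3 rises. MMP14, a membrane-type matrix metalloprotease that cuts CD44, had 10135 ± 311 normalized counts in DMSO, 8939.9 ± 584 at 5 nM, 5148 ± 149 at 50 nM and 3923 ± 22.1 at 500 nM (SD, n = 3 each). It fell by 1.37 on the log2 scale at 500 nM (adjusted p = 8.28e-13, limma) and by 0.88 between the low doses and 50 nM (adjusted p = 2.27e-10, limma). ADAM10, a sheddase of CD44, L1CAM and cadherins, fell by 0.94 and by 0.42 in the same comparisons (adjusted p = 1.19e-09 and 1.45e-05, limma), and MMP15 fell by 1.10 at 500 nM. Whether the proteins of the 9 genes were cut less was not measured. TSPAN14, a tetraspanin that binds ADAM10, rose by 0.52, and PSEN2, a subunit of gamma-secretase, by 0.37. NCSTN, another subunit, named after its values were seen, fell by 0.69 (adjusted p = 3.36e-09, limma).

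**Figure D4:**
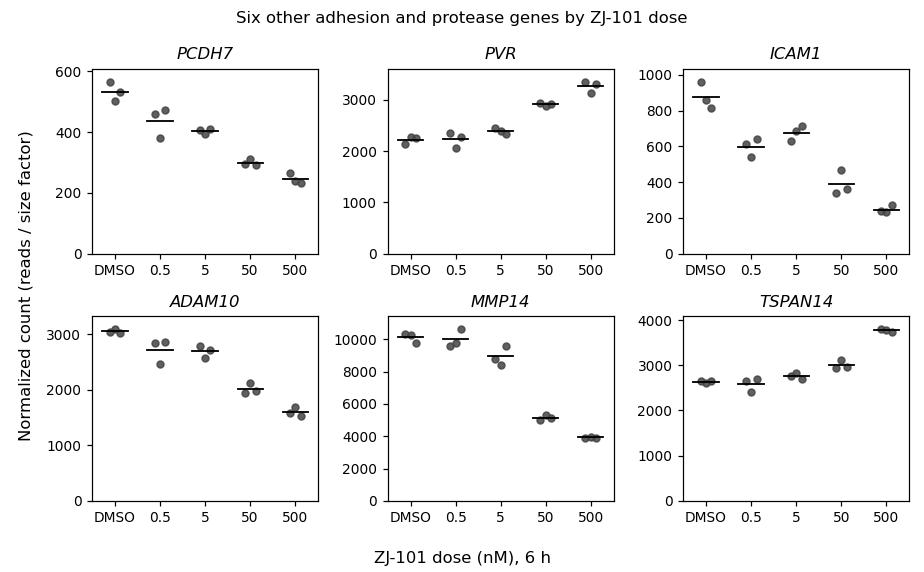
Normalized counts (vertical axes, from 0) of PCDH7, PVR, ICAM1, ADAM10, MMP14 and TSPAN14 against the dose of ZJ-101 in nM, with 1 point per library and a bar at each group mean. The MMP14 libraries at 50 nM lie between 5005 and 5303, below all 9 libraries at lower doses.

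Of 11 tested factors of the epithelial-mesenchymal transition or of epithelial identity, 1 rose and 1 fell at 500 nM, a share close to the 17.8% of all tested genes. KLF4 rose by 0.20 (adjusted p = 0.0125, limma) and lost its call when DMSO replicate 1 or 500 nM replicate 3 was left out. ELF3, an epithelial transcription factor chosen after its values were seen, fell by 0.30 (adjusted p = 0.0254, limma), with libraries that overlapped, and lost its call in 4 of the omissions of a library. SNAI1 and SNAI2, repressors of epithelial junction genes, named with ZEB1 after their values were seen, were at -0.43 and -0.33 at 500 nM and did not pass (adjusted p = 0.132 and 0.14, limma), and ZEB1 was at -0.08 (adjusted p = 0.566, limma). At 50 nM against the low doses, SNAI1 was at -0.09 (95% interval -0.43 to 0.25) and did not pass. SNAI2 was at 0.12 (-0.14 to 0.39) and ZEB1 at 0.07 (-0.07 to 0.20), and neither passed. Whether these factors bear on the levels of CLDN1 and CLDN4 was not tested.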

How the data were processed

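HISAT2 (alignment to hg38), HTSeq (reads per gene) and DESeq2 (size factors) were the tools of the authors for these poly-A libraries. The deposited signal values are normalized counts, reads per gene over the size factor of the library, in 1 table of 15 columns, matched to samples by their descriptions. Tool versions, strandedness and the GENCODE release are not given in the sources used here. A line naming no gene is not used. Dividing each column by the worth of a single read gave back the reads, and 100% of the values came out whole within 0.001.

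Values were tested as log2(normalized count + 1) with limma 3.58.1 (R 4.3.3, trend of variance on mean), all 15 libraries in 1 fit, Benjamini-Hochberg adjustment over the 13561 genes averaging 10 or more and a threshold of 0.05. Fold changes on this scale are understated for low genes. The fit was checked on simulated data. The members and lists were chosen with earlier results of these data known. Named are the members, up to 3 rises and 3 falls per list past the threshold with separate libraries at 500 nM, and the 3 genes most like CDH11, CLDN1 and CLDN4. Some genes that this rule names are not reported here. Replicates are taken to be separate dishes. The limma p-values set a difference against the spread between replicates, pooled over the 5 groups and moderated over genes. The replicate numbers did not pair the libraries (correlations of deviations from -0.0855 to 0.0961). Alternatives were pseudocounts of 0.5 and 5, no filter or a mean of at least 50, TMM scaling, equal totals, edgeR 4.0.16 and DESeq2 1.42.0 on recovered reads, the replicate block, a fit of only the groups compared, an adjusted p under 0.1 and each library left out. Near-identical genes were sought with minimap2 2.31-r1302 (at least 50% of a transcript at 95% identity). Positions are from GENCODE release 44, which held 93.79% of tested symbols.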

Additional observations from a re-analysis of the deposited data

How the results depend on the processing

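The count of members past the threshold between 50 nM and the low doses lay between 4 and 6 when 1 library was left out and was 5 or 6 under the other alternatives. From 0.5 to 5 nM the count was 1 with DESeq2, and between 0 and 1 without 1 library. Among the other adhesion genes, rises at 500 nM ranged from 11 to 24 and falls from 28 to 36 without 1 library, and calls between 50 nM and the low doses from 19 to 37. With the replicate number as a replicate block 6 members passed between 50 nM and the low doses and 0 from 0.5 to 5 nM, with 18 rises and 35 falls of other adhesion genes at 500 nM, and no member changed its call. CDH11, CLDN1, CLDN4 and CD44 kept direction and call between 50 nM and the low doses under each of the 25 alternatives. No called value changed sign. NECTIN2 and NECTIN3 lost the call as given above. The causes were not tested. The counts of L1CAM limit its precision.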
